A study of Mus musculus with 9 samples.

Results

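Gata2 knockdown (Gata2 KD) cells were compared directly with Pu.1 knockdown (Pu.1 KD) cells, 3 arrays against 3, in the mouse line FDCPmix. The arrays were chosen by their titles, Gata2 shRNA or Pu1 shRNA, which took in 6 of the 9 arrays of the series. The other 3 arrays, of cells given empty virus (EV), entered no test of this comparison, and their levels are given beside the knockdowns for some of the genes described. FDCPmix is an established multipotent hematopoietic progenitor line that depends on IL-3, so its behavior is that of 1 cultured line. All 3 groups were held in self-renewal conditions and carried a lentivirus with a GFP reporter, and both compared groups carried a short hairpin RNA (shRNA) in that vector, against Gata2 or against Pu.1. Viable GFP+ cells were sorted 5 days after transduction, and 150 ng of total RNA per sample was labeled with Cy3. The labels call the samples triplicates without saying whether the transductions were separate, so the p-values measure only the spread between these arrays. Since both sides of the comparison are knockdowns, a difference may stem from either, and the contrast alone cannot tell these apart. RNA came from sorted populations, so fewer cells of a type and less RNA per cell cannot be told apart either.

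GATA2 is a zinc finger factor that holds hematopoietic stem and progenitor cells in an undifferentiated, proliferating state, and it is also needed by mast cells and basophils. PU.1, the product of Spi1 (the formal symbol of Pu.1), is an ETS family factor that drives neutrophil, monocyte and B cell genes and is kept low in erythroid cells. GATA1, the relative of GATA2 that governs erythroid, megakaryocyte, mast cell and eosinophil genes, and PU.1 antagonize each other. A direct comparison of the knockdowns therefore sets cells short of a progenitor GATA factor against cells short of the main myeloid ETS factor.

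Spots well above background made up 80.4% to 89.6% of each of the 6 arrays, none was saturated, and the processed intensity at the 75th percentile ranged from 452.5 to 560.0. The 6 arrays lay on 3 slides, each holding 1 array of either knockdown, and slide was fitted as a block. In a principal component analysis of the 6 arrays, component 1 took 50.6% of the variance and 99.4% of it lay between the knockdowns, whereas component 2 took 34.3% and 99% of it lay between slides. The progenitor markers Kit, Cd34, Gata2 and Myb were well above background on all 9 arrays. Levels are log2 intensity minus the 75th percentile of the same array, so a level of 0 is that percentile, and levels of different probes are not compared. Values per array are listed in the order of slides 1, 2 and 3. Differences are Gata2 KD minus Pu.1 KD on the log2 scale with the standard error (SE) of the fit, n = 3 in each group, and a gene was called when limma's adjusted p was under 0.05.

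The targeted genes were examined first. Gata2 read 2.96, 2.91 and 3.56 in Gata2 KD and 4.52, 4.50 and 4.84 in Pu.1 KD. Every Gata2 KD array was below every Pu.1 KD array, and the mean of Pu.1 KD was near the EV level of 4.78 ± 0.27 (SD, n = 3). The difference was -1.48 with an SE of 0.11, which is 2.78-fold (adjusted p 0.00114), and the other tested Gata2 probe differed by -1.69. Spi1 read -0.44, -0.41 and -0.71 in Gata2 KD and -3.55, -3.65 and -3.68 in Pu.1 KD. The groups were far apart, and the EV level of -1.89 ± 0.20 lay between them. Spi1 was higher in Gata2 KD by 3.10 with an SE of 0.10, which is 8.60-fold (adjusted p 0.000112), and by 2.97 to 3.24 within the slides. Gata1 read -0.13, -0.04 and -0.26 in Gata2 KD and 1.03, 1.59 and 1.5 in Pu.1 KD, again without overlap, and 0.96 ± 0.21 in EV. Its difference was -1.52 with an SE of 0.15 (adjusted p 0.00245). Each knockdown thus carried less of its own target than the other did, and Gata1 went with Gata2.

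Of 35863 probes tested, 6576 (18.3%) were called, 2896 (8.08%) higher and 3680 (10.3%) lower in Gata2 KD. Taking for each named gene its tested probe of highest mean level, 3277 of 15639 genes (21%) were called, 1547 (9.89%) higher and 1730 (11.1%) lower, and these shares are the background for the gene groups that follow. Of the listed genes on the array 7 were too dim to be tested, among them Oas1g, Ifi44, Rhd, Ebf1 and Ncr1, and some genes stand in more than 1 group. The direction of the larger differences was uneven. Among called genes 690 were higher and 476 lower by at least 2-fold, 282 and 103 by at least 4-fold, and 90 and 3 by at least 16-fold. The median difference over all genes was -0.05. The 3 arrays of one knockdown lay wholly above or below those of the other for 4783 genes (30.6%). Called genes had 1455 further tested probes, of which 1328 differed in the same direction, 776 were called in it and 2 were called in the opposite one. The gene count was 2117 without Gata2 KD replicate 1, 2115 without Gata2 KD replicate 2, 2113 without Pu.1 KD replicate 1 and 2117 without Pu.1 KD replicate 2, where the slide block also sets aside the array left alone on its slide. Without the block it was 1930.

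**Figure D1:**
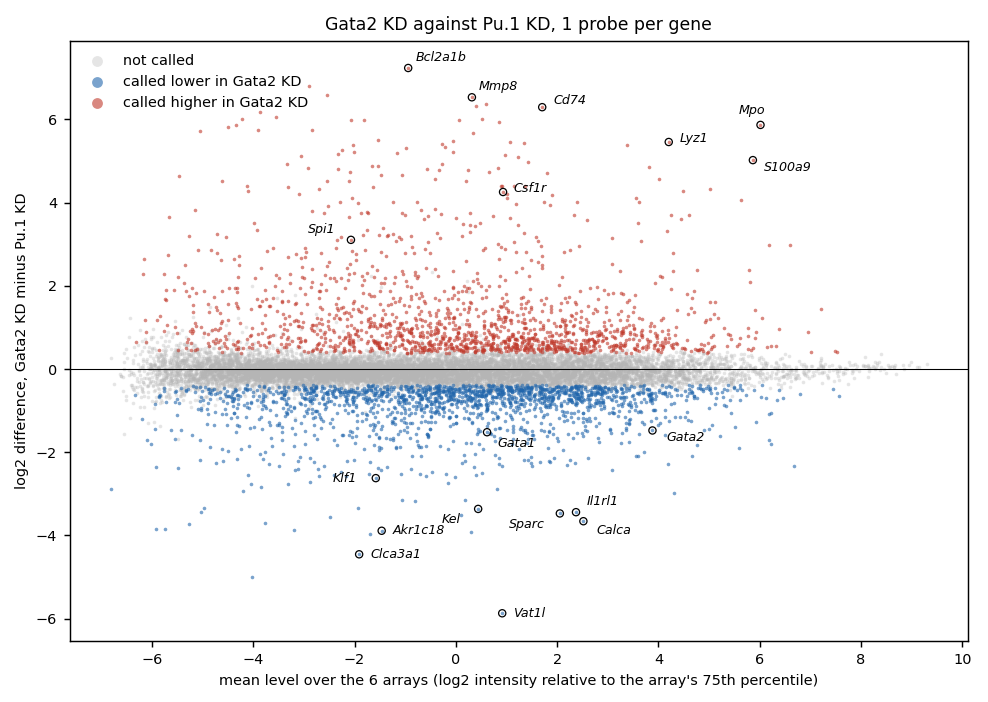
Log2 difference (Gata2 KD minus Pu.1 KD, vertical axis) against the mean level over the 6 arrays (log2 intensity relative to the 75th percentile, horizontal axis), 1 point per gene. Red points are the 1547 genes called higher, blue points the 1730 called lower and grey points genes not called; circled genes are named in the text, and the red cloud reaches 7.23 while the blue one ends at -5.87.

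The genes with the largest excess in Gata2 KD included several of neutrophils and macrophages. Bcl2a1b, a survival gene of the Bcl2 family, read 2.45, 2.77 and 2.81 in Gata2 KD against -4.43, -4.09 and -5.15 in Pu.1 KD, and -2.69 ± 1.03 in EV. That difference of 7.23 (SE 0.24, adjusted p 0.000112) is 150.6-fold and the greatest among genes measurable on all 6 arrays. With normexp background correction it was 5.14, so the fold depends on how the background is handled. Bcl2a1 genes are near-identical copies that a probe may not separate. Next came Mmp8, the neutrophil collagenase, at 6.53 (92.5-fold), and Clec5a, a myeloid lectin receptor that signals through DAP12, at 6.37. Ifitm6, Cd74, Ctss, Trem2, Trem3 and Igsf6 were also among the largest, with differences from 6.31 down to 5.93. The SE of these 8 genes was 0.10 to 0.17 and their adjusted p at most 7.32e-05. The EV levels of Ctss (-2.59 ± 0.47) and Trem2 (-3.04 ± 0.47) lay close to Pu.1 KD (means of -2.50 and -2.93), whereas those of Igsf6 (0.00 ± 0.22), Clec5a (-0.62 ± 0.22) and Trem3 (-2.65 ± 0.38) lay between the knockdowns. Trem3 was dim in Pu.1 KD, and with normexp background correction its difference was 3.88.

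The genes with the largest deficit in Gata2 KD varied in function. Vat1l, which encodes a protein similar to a synaptic vesicle membrane protein, read -1.94, -2.13 and -1.99 in Gata2 KD and 3.83, 3.67 and 4.05 in Pu.1 KD, with -0.05 ± 0.18 in EV. It differed by -5.87 (SE 0.11, adjusted p 4.79e-05), and its other tested probes differed by -3.91 and -1.94. Clca3a1 and Clca3a2, paralogs of a family of secreted chloride channel regulators, differed by -4.45 and -3.97; whether their probes separate them was not tested. Both EV levels, -3.57 ± 0.22 and -3.26 ± 0.26, lay near those of Gata2 KD (-4.14 and -3.68). The others in order were Crip2, a LIM protein gene (-3.92), Akr1c18, the progesterone-inactivating enzyme (-3.89), Gem, a small GTPase (-3.86, or -1.87 with normexp), Calca, the calcitonin gene (-3.66), Mslnl (-3.57, or -2.03 with normexp), Dmwd (-3.52) and Sparc, a matrix-binding glycoprotein (-3.47). For Akr1c18 the EV level of 0.66 ± 0.06 was near that of Pu.1 KD (0.48 ± 0.20) rather than that of Gata2 KD (-3.41 ± 0.82). EV lay between the means of Gata2 KD and Pu.1 KD for Crip2 (0.31, between -1.65 and 2.27) and Gem (-3.61, between -5.13 and -1.27). It also did for Calca (2.83, between 0.69 and 4.35) and Mslnl (-1.83, between -4.26 and -0.70). The same held for Dmwd (0.87, between -1.65 and 1.86) and Sparc (2.24, between 0.32 and 3.79).

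**Figure D2:**
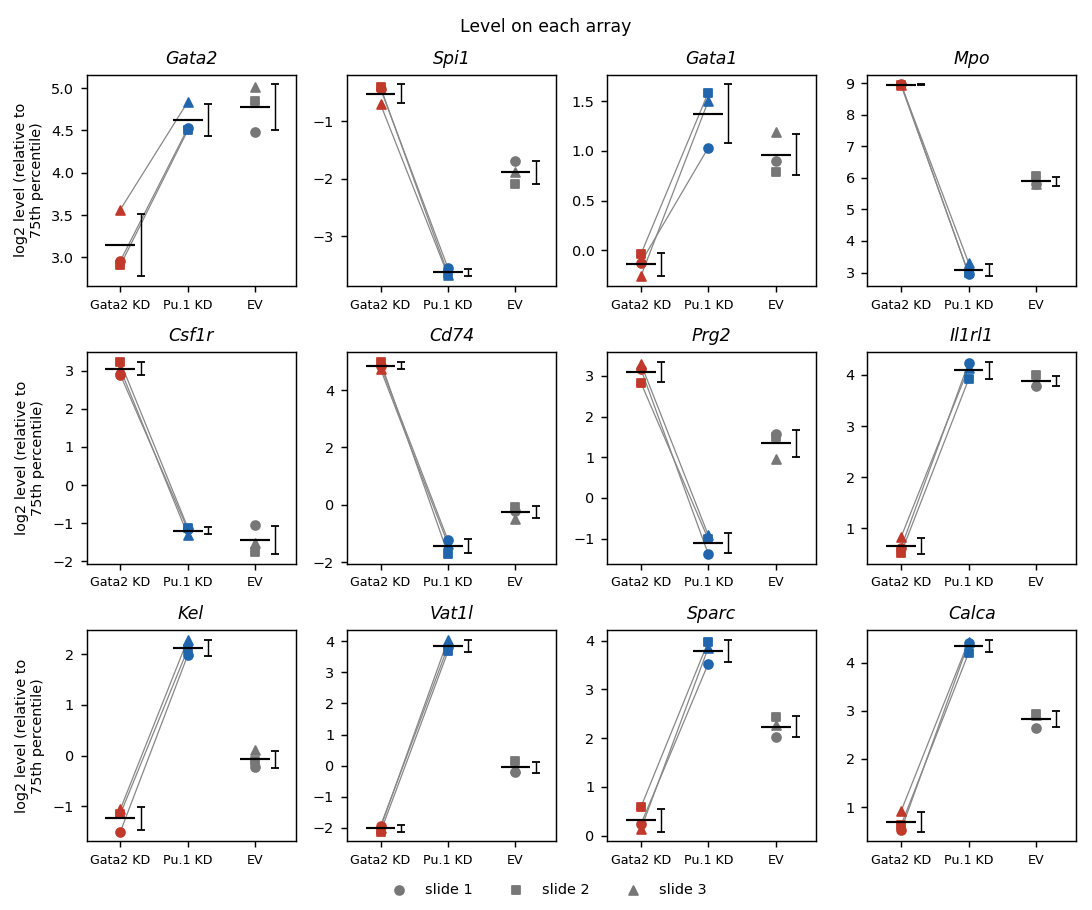
Level of 12 genes on each array (vertical axis, log2 intensity relative to the array's 75th percentile; scales differ between panels) in Gata2 KD, Pu.1 KD and EV. Symbols mark slides, grey lines join the 2 knockdown arrays of a slide, horizontal bars are means and brackets SD over 3 arrays; in every panel the knockdowns do not overlap, and for Spi1, Mpo and Kel the EV arrays lie between them.

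Lineage transcription factors were counted on a stem and erythroid side and on a myeloid side. On the stem and erythroid side, 19 factors were tested, of which 7 were lower, 1 was higher and 11 were not called, with a median difference of -0.21. Klf1, the erythroid Krüppel-like factor, was lower by the widest margin, at -2.77, -2.87 and -3.05 in Gata2 KD against -0.18, -0.39 and -0.24 in Pu.1 KD and a mean of -1.11 in EV (difference -2.62, SE 0.11, adjusted p 0.000192). Gfi1b, a repressor needed for erythroid and megakaryocyte development, differed by -1.76, the stem cell homeobox gene Meis1 by -1.59 (-1.02 with normexp), Zfpm1 (the GATA1 cofactor FOG1) by -1.35 and Tal1, the E-box partner of GATA factors, by -1.0. Runx1 was the single factor of this list that was higher (0.62, adjusted p 0.0154). Lmo2, Lyl1, Fli1, Erg and Ldb1, partners of GATA2 in progenitors, and Myb were not called, with differences from -0.35 to 0.39.

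On the myeloid side 13 of 22 factors were higher and 1 was lower, with a median of 0.85. Irf8, the factor of monocyte and dendritic cell fate, read 2.58, 2.63 and 2.70 in Gata2 KD and -2.23, -2.10 and -2.11 in Pu.1 KD, while EV read -1.72. Its difference was 4.78 (SE 0.09, adjusted p 4.79e-05). Cebpd differed by 4.12, the macrophage factor Maf by 4.01 (2.46 with normexp), Gfi1 by 2.59, Irf5 by 2.39, Cebpb by 1.83 and Cebpa by 1.22. The members of the AP-1 and Egr groups did not move together. Egr2 was higher (0.98), Egr1 was lower, at 2.82, 3.36 and 3.85 against 5.15, 4.58 and 5.03 (difference -1.58, adjusted p 0.0125), and Egr3 (0.36), Nab2 (-0.38), Fos (0.73), Jun (0.08) and Junb (0.06) were not called.

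Growth factor and cytokine receptors carry the signals for survival and lineage output, and of 18 tested 8 were higher and 6 lower (median 0.19). Csf1r, the receptor for M-CSF, read 2.90, 3.23 and 3.05 in Gata2 KD and -1.16, -1.12 and -1.31 in Pu.1 KD. EV lay with Pu.1 KD at -1.44, and the difference was 4.25 with an SE of 0.11 (adjusted p 6.32e-05). Its other tested probes differed by 3.25 and 0.56. Csf3r, the G-CSF receptor, differed by 4.51 (2.81 with normexp) and Csf2ra, the ligand-binding chain for GM-CSF, by 2.95. On the lower side stood Il1rl1, the IL-33 receptor (-3.44), Csf2rb2, a beta chain that serves IL-3 alone (-1.61), Epor, the erythropoietin receptor (-1.54), Il4ra (-0.74) and Kit, the stem cell factor receptor (-0.68). The shared beta chain Csf2rb (-0.36), the IL-3 receptor alpha chain Il3ra (0.31) and Flt3 (0.06) were not called. Epor, Kit and Il1rl1, which act in the erythroid and mast cell lineages, were thus lower, and the colony-stimulating factor receptors Csf1r, Csf2ra and Csf3r higher. Beside EV, Kit and Il1rl1 differed in pattern. The Kit means of 0.45 (Gata2 KD) and 1.13 (Pu.1 KD) were both above the EV mean of -0.28. For Il1rl1 the EV mean of 3.88 lay near that of Pu.1 KD (4.09) and far above that of Gata2 KD (0.65).

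Primary granule genes, which promyelocytes switch on first, included some of the largest differences. Of 9 tested, 6 were higher, 2 lower and 1 not called (median 3.70). Their summed linear level was 937.7 to 1060 times the 75th percentile in Gata2 KD, 288.6 to 324.7 in Pu.1 KD and 416.2 to 493.0 in EV. In such sums, here and below, the brightest members weigh most. Mpo, which encodes myeloperoxidase, read 8.96, 8.93 and 8.95 in Gata2 KD and 2.96, 2.97 and 3.31 in Pu.1 KD, with EV at 5.89 between them (difference 5.87, SE 0.12, adjusted p 4.79e-05). The serine proteases Prtn3 (4.39), Elane (3.75) and Ctsg (1.45) and the cell cycle regulator Ms4a3 (3.70) were also higher. Igsf6 (5.93), the top member, encodes a surface protein and not a granule protein. The 2 lower members, Cst7 (-1.54) and Serpinb1a (-0.51), encode inhibitors of proteases, and Srgn, the granule proteoglycan, was not called (-0.31).

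The promoters of Mpo, Elane and Prtn3 are shown because each of these granule genes was higher in Gata2 KD and holds the PU.1 type motif that was searched, GAGGAAGT on either strand. The promoter of Il1rl1 is shown for contrast, as a lower gene that holds the GATA motif AGATAAG. Each is the 250 bases before the RefSeq start, 5′ to 3′ on the gene's strand (the plus strand in all 4) in GRCm38.p6, at chr11:87793534-87793783 for Mpo, chr10:79886062-79886311 for Elane, chr10:79879417-79879666 for Prtn3 and chr1:40429320-40429569 for Il1rl1. Capitals mark the motif, which begins 224, 85, 95 and 217 bases before the start. A match of letters is not a binding site, and the arrays did not measure binding.
Mpo: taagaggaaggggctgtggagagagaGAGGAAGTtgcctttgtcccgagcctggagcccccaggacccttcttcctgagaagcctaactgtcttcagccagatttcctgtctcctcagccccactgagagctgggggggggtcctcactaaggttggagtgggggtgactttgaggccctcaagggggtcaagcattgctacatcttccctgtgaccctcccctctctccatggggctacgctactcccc
Elane: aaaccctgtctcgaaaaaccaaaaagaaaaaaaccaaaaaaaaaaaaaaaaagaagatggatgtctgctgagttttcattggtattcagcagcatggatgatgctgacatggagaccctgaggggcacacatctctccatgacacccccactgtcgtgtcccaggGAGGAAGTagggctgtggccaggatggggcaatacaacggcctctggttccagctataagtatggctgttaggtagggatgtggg
Prtn3: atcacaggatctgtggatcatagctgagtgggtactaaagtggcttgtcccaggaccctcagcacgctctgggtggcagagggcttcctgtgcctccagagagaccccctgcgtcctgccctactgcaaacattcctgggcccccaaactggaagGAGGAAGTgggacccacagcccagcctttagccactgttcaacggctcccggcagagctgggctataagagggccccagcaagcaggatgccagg
Il1rl1: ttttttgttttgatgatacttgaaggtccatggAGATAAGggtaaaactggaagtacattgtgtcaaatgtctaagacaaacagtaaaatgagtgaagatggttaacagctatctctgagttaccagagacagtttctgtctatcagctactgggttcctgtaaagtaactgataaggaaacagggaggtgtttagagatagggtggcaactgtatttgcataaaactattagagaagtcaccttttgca

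Over all tested genes with a promoter sequence (12509 of 15639), the PU.1 type motif was present in 337 promoters (2.69%) and the GATA motif in 343 (2.74%). Among genes called higher in Gata2 KD, 66 of 1235 promoters (5.34%) held the PU.1 type motif, and among those higher by at least 4-fold 18 of 210 (8.57%) did. Among genes called lower the shares were 44 of 1419 (3.10%) and, by at least 4-fold, 2 of 86 (2.33%). The GATA motif was held by 33 (2.67%) of the higher and 34 (2.40%) of the lower genes, and by 8 (3.81%) and 3 (3.49%) of those past 4-fold. These shares are descriptions, and no test was made of them.

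The neutrophil genes that follow in maturation differed as a body. Of 26 tested genes for later granules, stefins and the oxidase, 25 were higher and 0 lower in limma's test (26 and 0 at an unadjusted p under 0.05), and the median was 4.12. Their summed level was 936.2 to 1213 in Gata2 KD, 98.2 to 110.5 in Pu.1 KD and 186.3 to 199.99 in EV. Behind Mmp8 came Stfa2l1, a stefin inhibitor of cathepsins (5.46), Lyz1 (5.46) and S100a8, the calcium-binding alarmin (5.38), with its partner S100a9 at 5.02. Lyz1 read 6.84, 6.83 and 7.12 in Gata2 KD and 1.23, 1.47 and 1.72 in Pu.1 KD, and its paralog Lyz2, whose transcripts a probe may share, differed by 4.07. The specific granule genes Lcn2 (5.21), Ngp (4.58), Ltf (4.18) and Camp (3.75) and the formyl peptide receptor Fpr2 (4.88) were all higher, and none of these 5 overlapped between the knockdowns. The oxidase subunits were closer. Ncf1 differed by 2.91, Cyba by 1.62 and Ncf4 by 0.97, and Cybb, the catalytic chain, read -2.74, -2.66 and -3.21 against -3.20, -2.93 and -3.56 and was not called (0.36, adjusted p 0.0626).

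Most monocyte and macrophage genes were higher in Gata2 KD. Of 25 tested, 15 were higher, 0 were lower by limma (21 and 1 at an unadjusted p under 0.05) and 10 were not called, with a median of 1.87 and summed levels of 230.5 to 258.6 in Gata2 KD, 123.4 to 134.4 in Pu.1 KD and 124.1 to 150.5 in EV. Ctss, the protease that trims invariant chain, read 3.54, 3.35 and 3.67 in Gata2 KD against -2.26, -2.54 and -2.70 in Pu.1 KD. Trem2, a lipid-sensing receptor, differed by 5.99, the lectin receptor Clec4a2 by 4.75, Ctsh by 4.51, the chemokine receptor Ccr2 by 3.85 and the LPS co-receptor Cd14 by 3.67. Adgre1, which encodes the macrophage antigen F4/80, differed by 3.08 and the lipopeptide receptor Tlr2 by 3.06. Mrc1, the mannose receptor, was not well above background on any Pu.1 KD array and passed the background filter only through Gata2 KD. By processed intensity it was at least 8.69-fold higher in Gata2 KD (3.12 on the log2 scale). That bound does not hold under other background handling, as its log2 difference was 0.95 with normexp and 1.42 with the deposited values. Among the complement C1q chains C1qc was higher (2.41), and C1qa (0.31) and C1qb (0.20) were not called. Apoe (-0.09), Cd36 (-0.06), Lgals3 (0.46) and the scavenger receptor Msr1 (0.45) were not called.

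Fc gamma receptors and the signaling proteins around them were higher in 13 of 16 cases, with 0 lower (0 at an unadjusted p under 0.05) and a median of 3.28. Sirpa, which recognizes CD47, read 2.41, 2.36 and 2.51 in Gata2 KD and -2.78, -3.03 and -3.13 in Pu.1 KD (difference 5.41, SE 0.12, adjusted p 6.23e-05). The paired receptor genes Lilra6 and Pirb differed by 5.14 and 4.11, and Fcgr1, Fcgr3, Fcgr2b and Fcgr4 by 4.80, 4.39, 2.95 and 2.32. Pira2 was not well above background in Pu.1 KD and passed the background filter only through Gata2 KD. By processed intensity it was at least 16.9-fold higher in Gata2 KD (4.07 on the log2 scale). That bound too fails under other background handling, with log2 differences of 1.41 with normexp and 2.05 with the deposited values. Pira2, Lilra6 and Pirb belong to a family of close copies. The adaptor Tyrobp (DAP12) differed by 3.60 and the kinases Fgr, Syk and Lyn by 2.76, 1.87 and 1.65. The adaptors Fcer1g (0.11) and Hcst (-0.17) and the kinase Btk (-0.23) were not called. EV lay between the knockdowns for Fcgr1 (0.07), Fcgr3 (1.66) and Tyrobp (5.12).

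MHC class II genes were higher without exception among those tested, 9 of 9, with 0 lower (0 at an unadjusted p under 0.05) and a median of 2.72. The invariant chain gene Cd74 read 4.85, 4.98 and 4.73 in Gata2 KD and -1.24, -1.72 and -1.37 in Pu.1 KD (difference 6.29, SE 0.16, adjusted p 6.23e-05), and EV read -0.26. The chains H2-Aa and H2-Ab1, which present peptide, differed by 5.51 and 5.42, the peptide editor genes H2-DMb1 and H2-DMa by 2.80 and 2.15, their modulators H2-Ob and H2-Oa by 1.15 and 1.06, and Ciita, the transactivator of the family, by 1.64. The summed level was 68.5 to 78.6 in Gata2 KD, 7.14 to 7.74 in Pu.1 KD and 10.4 to 13.5 in EV.

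Interferon response genes differed in part. Of 30 tested, 18 were higher, 2 lower and 10 not called (median 0.95). Oas2, a sensor of double-stranded RNA, read -0.60, -0.74 and -0.15 in Gata2 KD and -5.59, -5.42 and -5.84 in Pu.1 KD, and EV read -5.02. Its difference was 5.12 (2.6 with normexp), that of the chemokine gene Cxcl10 4.92 (2.12 with normexp; above background on 1 of 3 Pu.1 KD arrays) and that of Ifit3 4.36 (2.09 with normexp). Isg15 (1.53), Irf7 (1.21) and Stat2 (0.61) were also higher, by less. Ifitm1, Ifitm3, Irf9, Bst2, Irgm1 and Eif2ak2 differed by -0.10 to 0.12 and were not called, while Isg20 (-1.31) and the GTPase Igtp (-0.43) were lower. The summed level over the 32 members on the array overlapped, at 438.7 to 588.2 in Gata2 KD and 455.7 to 554.5 in Pu.1 KD. Whether the hairpins themselves had a part in these differences was not tested. Of 12 tested genes of the machinery that makes and uses small RNAs, 1 was called, Prkra (-0.69, adjusted p 0.00825), a partner of Dicer and of the kinase PKR; Dicer1, Drosha, Xpo5 and Ago1 to Ago4 differed by -0.27 to 0.08.

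Eosinophil genes, too, were higher in Gata2 KD, 8 of 9 with 0 lower (0 at an unadjusted p under 0.05) and a median of 2.02. Prg2, which encodes the major basic protein, read 3.17, 2.83 and 3.30 in Gata2 KD and -1.38, -1.01 and -0.91 in Pu.1 KD, and EV at 1.34 lay between them (difference 4.20, SE 0.16, adjusted p 0.000147). Ear6, an eosinophil ribonuclease with close paralogs, differed by 5.25 (3.06 with normexp), Epx, eosinophil peroxidase, by 3.61 and Siglecf, an inhibitory lectin, by 3.10 (2.01 with normexp). Ccr3, the eotaxin receptor, was not called (-0.27). The summed level was 11.9 to 15.6 in Gata2 KD, 1.47 to 1.69 in Pu.1 KD and 3.76 to 5.21 in EV.

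**Figure D3:**
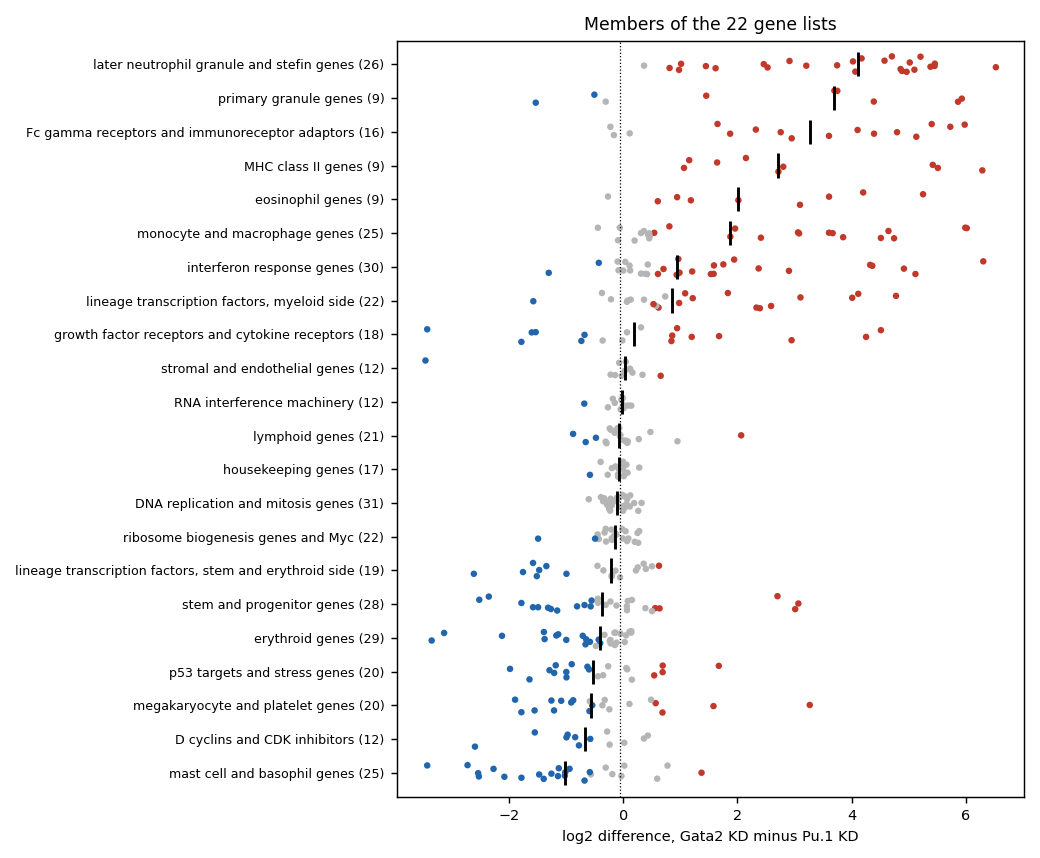
Log2 difference (Gata2 KD minus Pu.1 KD, horizontal axis) of each tested member of 22 gene lists, with the number tested in parentheses and lists ordered by their median (black bar). Red members were called higher, blue lower and grey not called; the dotted line is the median of all genes, -0.05, and medians run from -1.03 for mast cell and basophil genes to 4.12 for later neutrophil granule genes.

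Mast cell and basophil genes had the lowest median of the 22 lists (-1.03), with 17 of 25 lower, 1 higher and 7 not called. Il1rl1 read 0.62, 0.51 and 0.83 in Gata2 KD and 4.23, 3.91 and 4.13 in Pu.1 KD, and EV at 3.88 lay near Pu.1 KD (difference -3.44, SE 0.11, adjusted p 9.82e-05). Its promoter is the one shown above with the GATA motif. The protease genes Cma1 (-2.73), Mcpt2 (-2.55, or -1.60 with normexp), Mcpt4 (-1.40) and Mcpt8 (-1.13) and the carboxypeptidase Cpa3 (-1.79) were lower, and so were Tph1, which starts serotonin synthesis (-2.53), Fcer1a, the IgE-binding chain (-2.28), Slc18a2, the vesicular monoamine transporter (-2.09), and the cytokine genes Il4 (-1.15) and Il6 (-1.03). The Mcpt genes are close copies. EV stood above both knockdowns for Fcer1a, at 6.03 against 3.05 and 5.32, and for Cpa3, at 4.87 against 2.36 and 4.15. Mitf, a mast cell factor, was the 1 higher member (1.37), and Hdc, which makes histamine (0.02), and Ms4a2, the beta chain of the IgE receptor (-0.19), were not called. The summed level was 148.3 to 196.5 in Gata2 KD, 286.1 to 315.4 in Pu.1 KD and 316.2 to 395.9 in EV.

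Erythroid genes were lower in 14 of 29 cases, with 0 higher (0 at an unadjusted p under 0.05) and a median of -0.41. Kel, a blood group protease, read -1.51, -1.16 and -1.06 in Gata2 KD and 1.98, 2.10 and 2.29 in Pu.1 KD, with EV at -0.08 between them (difference -3.36, SE 0.10, adjusted p 9.09e-05). Aqp1, the water channel, differed by -3.14, Car2, carbonic anhydrase, by -2.13, and Cpox, a heme synthesis enzyme, by -1.40. The globin genes differed less. Hbb-bt read 6.84, 7.42 and 7.46 in Gata2 KD and 7.78, 8.02 and 7.89 in Pu.1 KD (difference -0.65, adjusted p 0.025), and Hba-a1 differed by -0.66 (adjusted p 0.0279). The EV mean of Hba-a1 (2.894) lay near that of Gata2 KD (2.975) rather than that of Pu.1 KD (3.64). Globin genes are near-identical copies. Heme and membrane genes of late erythroid cells, Alas2 (-0.15), Slc4a1 (0.11), Ank1 (-0.05) and Urod (0.05), were not called. The summed level of the 30 members on the array was 171.5 to 243.9 in Gata2 KD, 309.3 to 356.2 in Pu.1 KD and 274.6 to 371.8 in EV. In both knockdowns most of this linear sum was Hbb-bt, so it says little about the other members. The count called lower depended on the fit. It was 6 without the slide block, 8 without Gata2 KD replicate 2 or Pu.1 KD replicate 1, and 9 without Gata2 KD replicate 3 or Pu.1 KD replicate 3.

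Megakaryocyte and platelet genes went both ways, 10 of 20 lower and 4 higher, with a median of -0.57. Gp5, a von Willebrand factor receptor chain, read 0.83, 1.02 and 0.74 in Gata2 KD and 2.45, 2.95 and 2.88 in Pu.1 KD (difference -1.90, SE 0.13, adjusted p 0.00087). F2r, the thrombin receptor (-1.26), Itga2b (-1.22), Pf4 (-1.09) and Gp9 (-0.88) were also lower. Thbs1, the gene for thrombospondin 1, went the other way, at 1.11, 1.07 and 1.59 against -1.92, -2.02 and -2.10 (difference 3.27, SE 0.16, adjusted p 0.000298), as did the chemokine gene Ppbp (1.58), Selp (0.68) and Clec1b (0.57). The summed level of the 21 members on the array was 125.8 to 168.6 in Gata2 KD, 293.5 to 301.9 in Pu.1 KD and 186.1 to 214.8 in EV. For Thbs1 and Ppbp the EV levels (-1.80 and -0.54) lay with Pu.1 KD. Among the lower genes, EV lay between the knockdowns for Itga2b (4.304) and Gp9 (2.665). For Pf4 the EV mean of 5.118 was below both Gata2 KD (5.64) and Pu.1 KD (6.731).

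Stem and progenitor genes did not move as a body, with 12 of 28 lower, 5 higher and a median of -0.38. Cd34, a sialomucin of progenitors, read 5.07, 5.25 and 5.27 in Gata2 KD and 2.01, 2.18 and 2.19 in Pu.1 KD, above an EV level of 3.05 in one case and below it in the other (difference 3.07, SE 0.09, adjusted p 9.09e-05). Ly6a, which encodes Sca-1, differed by 3.01 and the endothelial protein C receptor gene Procr by 2.70 (1.34 with normexp). In the opposite direction were Slamf1 (-2.53), Spink2 (-2.36), Meis1, Mycn (-1.50), Sox6 (-1.32), Angpt1 (-1.27) and Adgrg1 (-1.16). The HoxA genes tested, Hoxa5, Hoxa7, Hoxa9 and Hoxa10, were dim and not called.

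The knockdowns could also hold cells of other kinds, whose markers were counted in the same way. Of 21 lymphoid genes 1 was higher and 3 lower (median -0.07), and the summed level of the 23 on the array was 5.86 to 7.86 in Gata2 KD and 6.57 to 8.65 in Pu.1 KD. The higher gene was Cd79b (2.06, adjusted p 0.000383), and the lower ones were Vpreb1 (-0.88), Lck (-0.66) and Zap70 (-0.48), the last with an adjusted p of 0.0439 and over the threshold when any of the 6 arrays was left out. Cd79a (0.01), Cd3e (-0.06) and Cd4 (-0.07), which define B and T cells, were not called. Of 12 stromal and endothelial genes 1 was higher (Pdgfrb, 0.65) and 1 lower, Sparc, which hematopoietic cells also express. The summed level, which includes Sparc, was 5.16 to 7.0 in Gata2 KD and 16.4 to 20.7 in Pu.1 KD. The collagen genes Col1a1, Col1a2 and Col3a1 differed by 0.04 to 0.16 and were not called. None of these defining markers lay below background on all 6 arrays. Whether other cells had a part in the differences was not tested.

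Cell cycle genes were counted as 2 groups, which were not tested against each other. Of 31 genes of DNA replication and mitosis 0 were called by limma (7 at an unadjusted p under 0.05, all lower), with a median of -0.12 and differences from -0.61 for Top2a to 0.32 for Bub1. The count depended on the setting. It was 1 without Gata2 KD replicate 3 or Pu.1 KD replicate 3, 4 lower with the deposited values or with trend and robust settings, and 6 lower and 1 higher with normexp. Of 12 D cyclins, their kinases and CDK inhibitors, 7 were lower and 0 higher (2 at an unadjusted p under 0.05), with a median of -0.68. Cdkn2b, which encodes the inhibitor p15, read -1.43, -1.32 and -1.19 in Gata2 KD and 1.30, 1.35 and 1.22 in Pu.1 KD (difference -2.60, SE 0.11, adjusted p 0.000203), with EV at 0.56. The inhibitors Cdkn2a (-1.55, adjusted p 0.0311), Cdkn1a (-1.0), Cdkn1c (-0.85) and Cdkn2c (-0.78) and the activators Cdk6 (-0.98) and Ccnd2 (-0.58) were lower too, so genes of opposite action shared a direction. For Cdkn2a the SE was 0.33 and the adjusted p reached 0.176 over the alternatives, and both Cdkn1a and Cdkn2a were over the threshold without Gata2 KD replicate 3 or Pu.1 KD replicate 3. Of 22 ribosome biogenesis and Myc family genes, 2 were lower, Mycn and Dkc1 (-0.50), 0 were higher (0 at an unadjusted p under 0.05), and Myc itself differed by 0.26 and was not called. The count was 1, without Dkc1, when replicate 1 or 2 of either knockdown was left out, and 4 when replicate 3 of either was.

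Stress genes and targets of p53 were lower in 10 of 20 cases and higher in 4, with a median of -0.52. Phlda3, an inhibitor of AKT that p53 induces, read 2.5, 2.84 and 2.80 in Gata2 KD and 4.74, 4.56 and 4.81 in Pu.1 KD (difference -1.99, SE 0.13, adjusted p 0.000731), and EV at 3.64 lay between them. Trp53inp1 (-1.65), Ccng1 (-1.30), Mdm2 (-1.21), Bbc3, which encodes PUMA (-1.19), and Cdkn1a were lower as well, but Bax, Sesn2 and Gadd45a were not called. Pmaip1, which encodes NOXA, differed in the opposite direction, at 3.32, 3.61 and 4.01 against 1.92, 1.79 and 2.20 (difference 1.67, SE 0.12, adjusted p 0.00109). Of the stress genes outside that pathway, Ddit3 (-0.91), Trib3 (-0.63), Hspa1a (-1.0) and Hspa1b (-0.60) were lower, Hmox1 (0.69), Atf3 (0.69) and Chac1 (0.54) higher, and Atf4 (0.05), Asns (0.07) and Hspa5 (0.15) not called.

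Housekeeping genes served as a check on the scaling. Of 17 tested 1 was called, Tfrc, the transferrin receptor (-0.59, adjusted p 0.0124), which is also an erythroid gene, and the median was -0.08. Tfrc was over the threshold without replicate 1 or 2 of either knockdown. Actb, Hprt, Pgk1, Ldha, Rplp0 and Rpl13a differed by -0.09 to 0.01, and the summed level was 1190 to 1497 in Gata2 KD and 1318 to 1515 in Pu.1 KD.

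**Figure D4:**
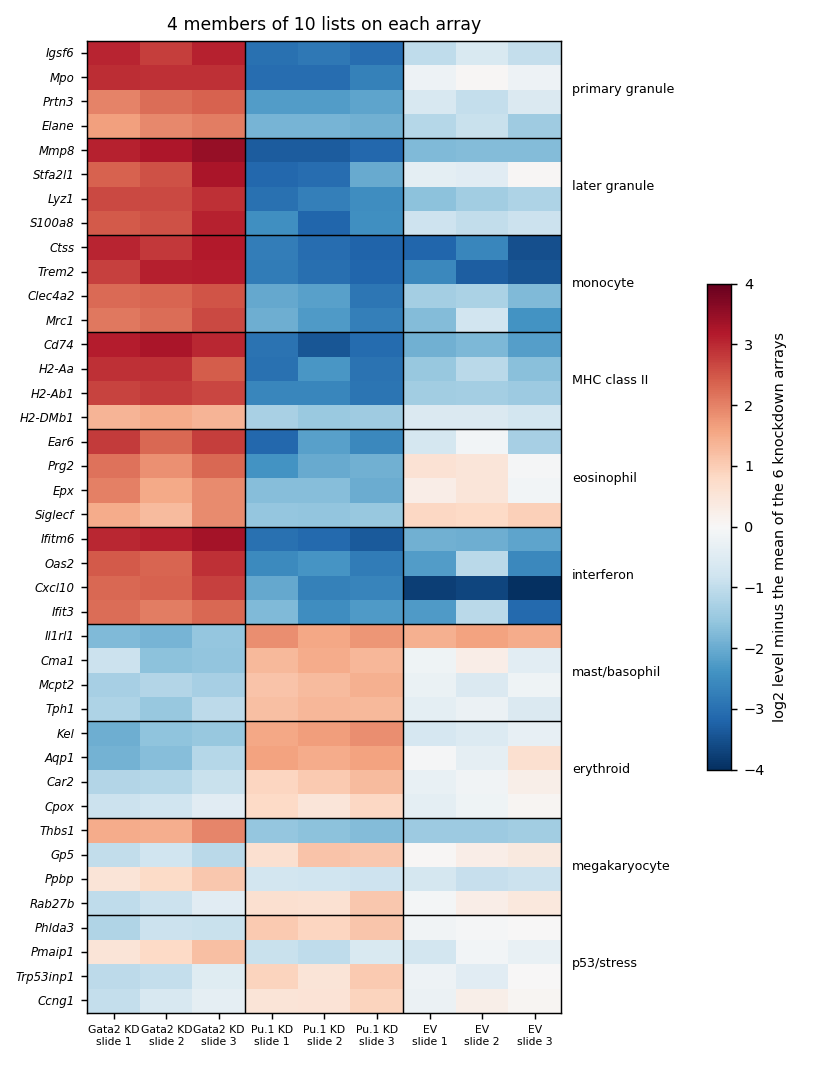
Level of 4 called members among those with the largest absolute differences in each of 10 gene lists, on each of the 9 arrays, as log2 level minus the mean of the 6 knockdown arrays (red above, blue below, scale from -4 to 4). Granule, monocyte, MHC class II, eosinophil and interferon genes are red in Gata2 KD and blue in Pu.1 KD, mast cell and erythroid genes the reverse, and Thbs1, Ppbp and Pmaip1 are red in Gata2 KD, unlike the other plotted members of their lists.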

How the data were processed

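Total RNA of sorted FDCPmix cells was hybridized to 1-color Agilent mouse arrays (build mm8). The authors deposited scanner files of Feature Extraction 10.1.1.1, whose processed intensity is background-subtracted, and a table of log2 values that follow the log2 median intensity (r at least 0.997 on every array) and whose scaling is not given in the sources used here. It served as an alternative only. Here log2 processed intensity minus each array's 75th percentile was used. Control spots were left out, outlier-flagged spots were set missing and spots of a probe were averaged. Probes that 3 or more of the 6 knockdown arrays measured well above background, with at least 2 values per group, were tested in limma 3.58.1 (R 4.3.3) with slide, taken from the array barcode, as a fixed block and Benjamini-Hochberg adjustment over all probes. The script was tested on simulated data. Accessions matched RefSeq (GRCm38.p6) for 23374 of 41174 probes, or 16535 genes, and promoters are from RefSeq too. Listed symbols with no match, such as Cebpe, Cd68, Gapdh and Mki67, were not analysed here.

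Named were Gata2, Spi1 and Gata1, the 10 largest differences each way among called genes above background on all 6 arrays and without overlap between the groups (RIKEN and Gm names passed over), and the 4 largest called members of each list. Other list members are given beside them, and some genes that these rules name are not reported here. Members and lists were chosen with earlier results of these data known. Where every array of a group was not well above background, the fold is a lower bound against the lowest signal well above background. The number of arrays limits the precision. Alternatives were no block, other blocks, all 9 arrays, normexp (offset 50), quantile or median scaling, other filters, trend and robust settings, the deposited values, a 2-fold minimum and leaving out each array.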

Additional observations from a re-analysis of the deposited data

How the results depend on the processing

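Against 6576 probes, 3277 genes and 216 list members called, the fit without a slide block called 3592 probes and 1930 genes, the 9 arrays without a block 3584 and 2000, and a minimum of 2-fold 2130 and 1166. With 1 array left out the counts were 4144 to 4959 probes, 2113 to 2450 genes and 192 to 204 list members. With the replicate block in place of slide they were 1646 probes, 956 genes and 142 list members. Same-numbered arrays of the knockdowns deviated together in 1 of 3 pairs (r of deviations -0.557, -0.41 and 0.521, the last also sharing a slide). The other pairs lay on different slides, and deviations followed the slide. These values therefore cannot tell whether the numbers pair the samples, and the labels do not say so either. Arrays of 1 slide gave r of 0.482 to 0.716. The share called higher was 44.0%, and 57.4% with the replicate block. No gene called in both an alternative and the reported fit had opposite directions.

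Gata2 differed by -1.58 to -1.42, Spi1 by 2.10 to 3.17 and Gata1 by -1.70 to -1.39 over the alternatives, with limma's adjusted p at most 0.0429, 0.0061 and 0.0254. Of the 86 named genes 76 kept their call in every refit and 0 turned direction, the 2-fold minimum not being applied to single genes. Apart from Gata2, Spi1 and Gata1 they were chosen among called genes for large differences on the same arrays. Their retention is therefore no measure of how other genes would fare. Among the refits the replicate block alone lost Vpreb1, Lck and Cdk6. Zap70, Pdgfrb, Cdkn2a, Cdkn1a, Dkc1, Prkra and Tfrc were lost under 3 or more alternatives. With the replicate block the erythroid genes called lower numbered 6 in place of 14, megakaryocyte genes 3 in place of 10 (and 2 higher in place of 4), D cyclins and CDK inhibitors 2 in place of 7, mast cell genes 11 in place of 17, lymphoid genes 0 in place of 3 and p53 and stress genes 5 in place of 10 (1 higher in place of 4). Stem and progenitor genes numbered 3 higher and 7 lower in place of 5 and 12, receptors 5 and 4 in place of 8 and 6, and interferon genes 12 and 1 in place of 18 and 2. Eosinophil genes called higher numbered 5 in place of 8 and myeloid factors 9 in place of 13. Prkra, Pdgfrb and Tfrc were no longer called. Normexp moved 18 of the 86 log2 differences by a ratio above 1.5, mostly of genes dim in 1 knockdown. The deposited values moved 7 of these (Gem, Mrc1, Pira2, Oas2, Cxcl10, Ifit3 and Procr). The ratio is of log2 values, so a gene within it can still change much in fold, as did Bcl2a1b (7.23, or 5.14 with normexp). Signal near background limits such genes. Normexp on the mean signal was not run, as that column was not used here.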

Other observations

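The families that follow were chosen after their values were seen, and every tested member by symbol is counted. Granzymes, serine proteases of cytotoxic granules that mast cells can also express, were lower in Gata2 KD in 4 of 7 cases and higher in 0 by limma (0 at an unadjusted p under 0.05). Gzmb had means of 5.52 in Gata2 KD, 7.84 in Pu.1 KD and 7.46 in EV (difference -2.32, SE 0.11, adjusted p 0.000256). Gzmc (-2.54) and Gzmd (-2.47) were lower too, and Gzmf, not well above background in Gata2 KD, was at least 2.51-fold lower by processed intensity. Gzmc, Gzmd and Gzmf are close copies of each other, and Gzme (0.10), Gzmm (-0.32) and Gzmk (0.31) were not called. Of 20 complement components and receptors 6 were higher and 0 lower by limma (9 and 1 at an unadjusted p under 0.05), with a median of 0.01. C3, the central component, had means of 6.29 in Gata2 KD and 1.72 in Pu.1 KD, with EV at 1.88 (difference 4.57, SE 0.10, adjusted p 5.52e-05). Cfp, which encodes properdin, differed by 4.02 and Cfb, factor B, by 4.12, whereas C5ar1 (-0.08) and C2 (-0.08) were not called. C1ra was at least 25.6-fold higher by processed intensity, being not well above background in Pu.1 KD.

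In the IL-1 family 6 of 16 genes were higher and 3 lower. Il1rn, the receptor antagonist, had means of 0.67 in Gata2 KD and -4.72 in Pu.1 KD (difference 5.39, SE 0.16), and Il1r2, the decoy receptor, of 1.42 and -3.77 (5.19, SE 0.16). The signaling receptor Il1r1 (2.78) and the ligands Il18 (1.04) and Il1b (0.99) were higher too, and Il1a (-0.15) was not called. The IL-18 receptor chains Il18r1 (-1.45) and Il18rap (-0.57, adjusted p 0.0476) were lower. Of 13 genes in the Trem and Cd300 families, largely receptors of myeloid cells, 8 were higher and 1 was lower. Trem1 (3.21), Treml4 (3.18), Cd300lf (3.47) and Cd300c2 (3.82) stood beside Trem2 and Trem3, and Treml1, a platelet receptor, was the lower one (-0.55). Of 13 genes of the Ms4a family 8 were higher and 0 lower by limma (8 and 0 at an unadjusted p under 0.05), led by Ms4a6b (5.31), Ms4a6d (4.39, above background on 1 of 3 Pu.1 KD arrays) and Ms4a3. Of 18 cathepsins 7 were higher and 0 lower by limma (8 and 0 at an unadjusted p under 0.05). Beside Ctss, Ctsh and Ctsg these were Ctsl (2.20), Ctsz (1.81), Ctsa (1.03) and Ctsc (0.95), while Ctsd (-0.19), Ctsb (0.45) and Ctse (-0.25) were not called.

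Besides Mrc1, Pira2, C1ra and Gzmf, some genes had a difference that can only be bounded, since every array of 1 knockdown read them near background. In all 21 called genes higher and 16 lower in Gata2 KD were of this kind. Each passed the background filter only through the knockdown where it was higher, so its call is no independent support for that direction. The folds are bounds by processed intensity only, and those of C1ra, Gzmf and the genes that follow were not checked with normexp. Apol7c was at least 44.8-fold higher, Fgd4, an exchange factor for CDC42, at least 37.7-fold and Nlrc4, an inflammasome sensor, at least 17.5-fold. Calcb, the paralog of Calca, was at least 6.52-fold lower and Bmerb1 at least 6.77-fold.

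Myct1 was tested among the stem and progenitor genes and not called, but 1 array stood apart. It read 0.82, 1.07 and 1.16 in Gata2 KD and 2.97, 2.67 and -3.74 in Pu.1 KD, the last on slide 3. Nab2 followed the slide in both knockdowns, at -4.40, -4.46 and -2.23 in Gata2 KD and -3.81, -4.27 and -1.89 in Pu.1 KD. Of 14017 tested probes with no gene name here, 2096 were called.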
